A study of Mus musculus with 24 samples.

Results

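The genes described here are 36 genes of the acute phase and of the cytokine response of the liver: secreted acute phase proteins, chemokines, cytokines and their receptors, metal-binding proteins and the transcription factors that drive them. They were taken by gene symbol from an Agilent 1-colour mouse expression array, on which 57 of 56605 non-control probes carried these 36 symbols, and all 36 were among the 17215 genes tested. The labelled RNA (Cy3) came from livers of 8-week-old C57Bl/6J males kept on Safe 04 chow and killed at ZT16, which is 16 h after lights on. The 4 groups were fasted LKO (6 animals), fasted LWT (5), fed LKO (6) and fed LWT (5), where LKO stands for a liver-specific knockout of Ppara, LWT for liver wild type, and fasted for 24 h without food. Ppara encodes the nuclear receptor PPARalpha. The labels do not give the Cre driver or the deleted exons of the LKO mice, and all groups share the strain, the sex, the age, the chow and the time of day. The series description counts 24 individual mice, but the labels number 22 animals, since 1 fasted LWT and 1 fed LWT animal were each put on a pair of arrays; these pairs were averaged.

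The acute phase response is the change in plasma proteins that the liver makes when cytokines signal injury or infection. Interleukin-6 acts on hepatocytes through its receptor and the transcription factor STAT3, whereas interleukin-1, tumour necrosis factor and bacterial lipopolysaccharide act through NF-kappaB, with C/EBP factors and glucocorticoids adding to both. Hepatocytes then secrete serum amyloid A, orosomucoid, haptoglobin, fibrinogen and other proteins that bind pathogens, haem, metals or proteases, and hepatocytes, macrophages and endothelial cells release chemokines. PPARalpha is known to switch on fatty acid use in the fasted liver, and its ligands are known to dampen acute phase genes.

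Levels are log2 processed signals relative to the 75th percentile of all non-control probes of the array, so a level of 0 is a signal at that percentile, and changes are log2 differences from a limma fit to all 22 animals, with their standard error (SE). Calls are changes whose p, adjusted over all 17215 genes, was below 0.05. The 75th percentile lay between 309.7 and 412.6 intensity units over the 24 arrays, and between 50% and 58.8% of probes were well above background. Ppara itself averaged 5.60 ± 0.12 (SD, n = 6) in fasted LKO and 6.48 ± 0.13 (n = 5) in fasted LWT livers, and 5.17 ± 0.37 (n = 6) in fed LKO and 5.84 ± 0.21 (n = 5) in fed LWT livers; it was called lower in LKO in both states (log2 -0.88 and -0.67), which checks the labels only as far as its probe lies in the deleted part. Fed LKO replicate 3 stood apart from the other fed LKO animals: its correlation with their mean over all genes was 0.9864, against 0.9934 to 0.9965 for the other 21 animals and the means of their own groups. Of the 36 genes, 18 were at least 1 log2 unit above the mean of the other 5 fed LKO animals in that liver, and none was as far below. It was named in advance, with the choice of the genes, for these high levels, so its values are a description. The counts of members called are also given without it. That the separate samples were separate animals is stated by the labels, and each group was spread over the same 3 slides.

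Fasted LKO livers had higher levels than fasted LWT livers for 9 of the 36 genes, and none was called lower. They were the chemokine genes Cxcl1, Cxcl10 and Ccl2, the lipopolysaccharide co-receptor gene Cd14, the cytokine gene Il1b, the interleukin-1 receptor chain gene Il1rap, and the secreted protein genes Saa3, Hpx and Cp. Of all genes tested, 37.9% were called in that comparison, with 16.5% higher and 21.4% lower. The median change of the 36 genes was 0.27, beside -0.03 for all genes. Without fed LKO replicate 3, which enters this comparison only through the shared estimate of the spread, 17 of the 36 genes were called higher and 1 lower, and 40.7% of all genes were called. A fit to the fasted animals alone called 19 higher and 1 lower, beside 6709 of all 17215 genes called. When fed, 1 gene, Il1rn, was called between LKO and LWT, higher in LKO, beside 4.02% of all genes. Without replicate 3 the fed calls were Il1rn, Mt1 and Mt2, all higher in LKO, beside 5.10% of all genes.

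Fasting changed the 36 genes in both directions. In LKO livers 9 were called higher and 7 lower after the fast, beside 49.7% of all genes called. In LWT livers 7 were called higher and 11 lower, beside 44.4% of all genes. Called higher in both genotypes were Cd14, Cebpd, Il1rn, Il6ra, Lbp, Mt1 and Mt2, and called lower in both were Itih4, Orm1, Orm2, Saa4 and Steap4. Ccl2 and Cxcl10 were called in opposite directions, higher after the fast in LKO and lower after it in LWT. The fasting change itself differed between the genotypes (LKO minus LWT, the interaction term of the fit) for 5 genes, Cd14, Il1rap, Ccl2 and Cxcl10 with a more positive change in LKO and Il1rn with a less positive one, beside 18.6% of all genes. Without fed LKO replicate 3, the calls were 12 higher and 7 lower with fasting in LKO (50.9% of all genes called), 8 higher and 16 lower with fasting in LWT (47.0%), and 12 positive and 1 negative for the difference of the fasting changes (23.3%). In all, 24 of the 36 genes were called in at least 1 of the 5 comparisons and 12 in none of them. The share of all genes called in at least 1 comparison was not counted. Fasting in LKO alone called 49.7% of all genes, so the 24 are only a description. The 12 were Lcn2, Hp, Crp, Fga, Fgb, Itih3, Il1r1, Serpina3n, Serpina3m, Stat3, Hamp and C3.

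**Figure D1:**
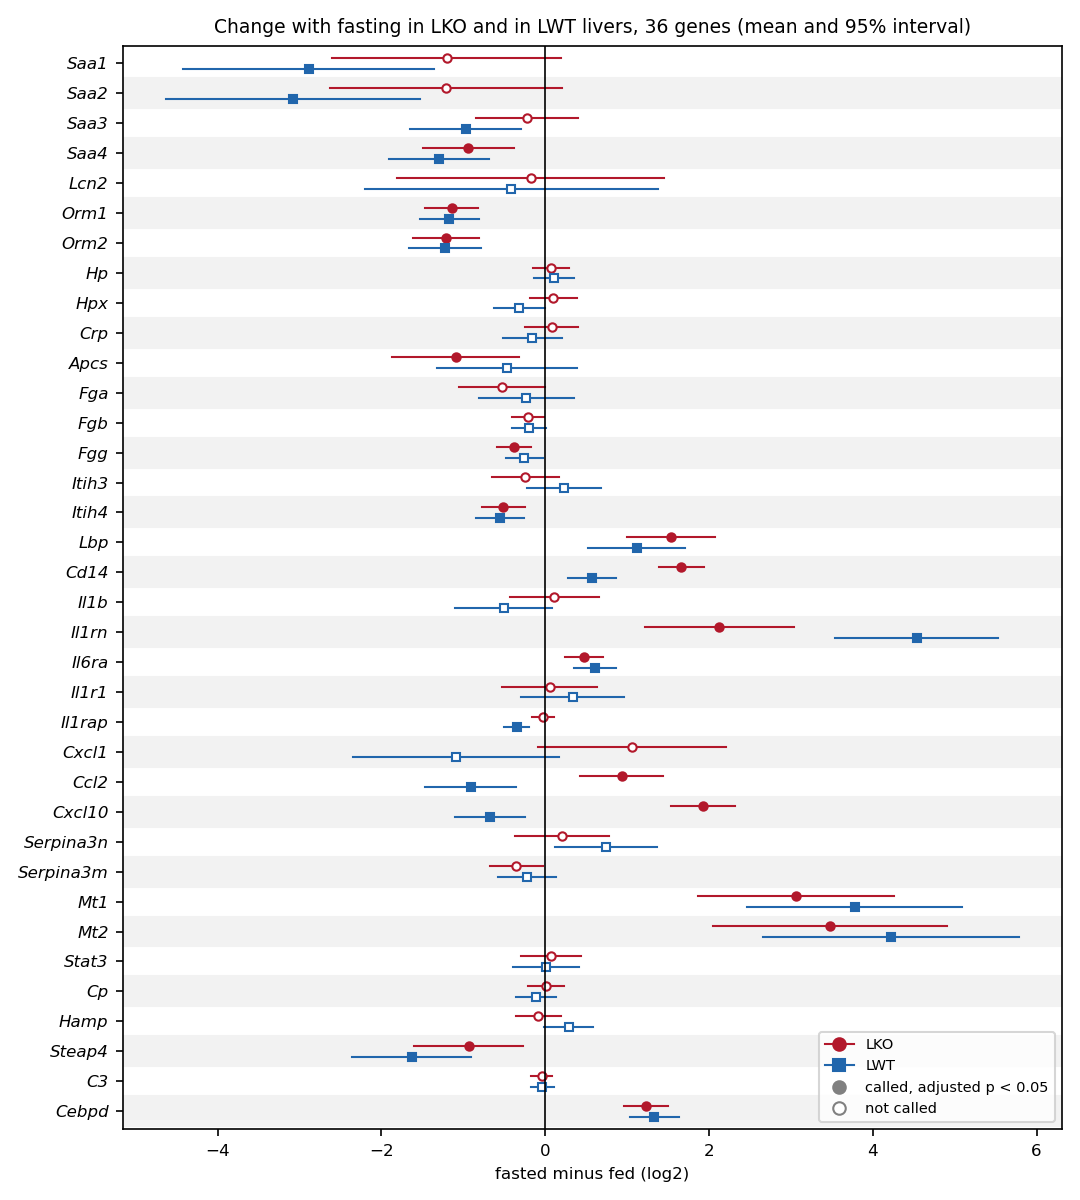
Change with fasting (fasted minus fed, log2, with 95% interval) of the 36 genes in LKO livers (red circles) and in LWT livers (blue squares); filled symbols were called at an adjusted p below 0.05. Cxcl10 and Ccl2 lie to the right of 0 in LKO and to the left of it in LWT, whereas Mt1, Mt2, Lbp and Cebpd lie to the right, and Orm1 and Orm2 to the left, in both.

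The chemokine genes had the largest genotype differences of the 36 genes in fasted livers. Cxcl1 encodes a chemokine that draws neutrophils, Cxcl10 an interferon-induced chemokine that draws T cells, and Ccl2 a chemokine that draws monocytes. Both Cxcl1 and Cxcl10 are known targets of NF-kappaB, and their promoters are shown here for the matches to the NF-kappaB consensus, set in capitals; matches on either strand were counted and overlapping ones joined. The sequences run from 250 bases before to 50 after the RefSeq transcript start (GRCm38.p6). The Cxcl1 window is chr5:90890995-90891294 on the + strand and holds 1 match. The Cxcl10 window is chr5:92348840-92349139 on the - strand and holds 2.
Cxcl1: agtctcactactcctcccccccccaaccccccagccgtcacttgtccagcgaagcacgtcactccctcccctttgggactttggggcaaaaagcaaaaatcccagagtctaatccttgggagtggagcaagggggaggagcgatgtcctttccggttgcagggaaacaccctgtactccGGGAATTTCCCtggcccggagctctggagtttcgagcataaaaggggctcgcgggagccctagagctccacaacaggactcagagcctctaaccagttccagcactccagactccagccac
Cxcl10: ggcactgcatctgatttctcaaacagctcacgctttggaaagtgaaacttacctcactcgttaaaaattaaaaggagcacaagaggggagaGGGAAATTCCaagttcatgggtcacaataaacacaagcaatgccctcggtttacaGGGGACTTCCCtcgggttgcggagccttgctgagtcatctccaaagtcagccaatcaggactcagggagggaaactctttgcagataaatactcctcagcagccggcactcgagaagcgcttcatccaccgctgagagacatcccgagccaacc
A match was found in 8.46% of 32851 mouse promoters of the same length and in 4 of the 29 member genes with a promoter in the table used (Cxcl1, Cxcl10, Il1r1 and Steap4). A match describes these letters only.

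Cxcl1, read by a probe on chromosome 5 (mm9, 91322080 to 91322139), had a lowest, median and highest level of 2.40, 3.30 and 3.87 in the 6 fasted LKO livers, against 0.58, 0.29, -0.16, -0.09 and 0.79 in the 5 fasted LWT livers. The fasted groups did not overlap, and the difference was 7.50-fold (log2 2.91, SE 0.58, adjusted p = 0.000477). In fed livers the levels were 1.18, 1.39 and 1.73 in 5 fed LKO livers and 5.69 in fed LKO replicate 3, against 1.06, 1.61, 1.51, 1.69 and 0.98 in fed LWT livers. Apart from replicate 3, which was higher than every fasted LKO animal, the fed groups lay in the same range. With all animals, the change with fasting was 1.06 in LKO (95% interval -0.09 to 2.21, adjusted p = 0.118) and -1.09 in LWT (95% interval -2.35 to 0.17, adjusted p = 0.153). Without fed LKO replicate 3 it was 1.77 in LKO (SE 0.24, adjusted p = 4.32e-06) and -1.09 in LWT (SE 0.25, adjusted p = 0.00131), and these changes differed by 2.86 (SE 0.35, adjusted p = 1.11e-05). So the fasting calls for Cxcl1 depended on that 1 liver, and the call between fasted LKO and fasted LWT did not.

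Cxcl10, read by a probe on chromosome 5 (mm9, 92775781 to 92775840), stood at 1.40, 1.65 and 2.56 (lowest, median and highest) in fasted LKO livers, against -0.78, -0.60, -0.44, -0.57 and -1.03 in fasted LWT livers. Fed LKO livers had -0.54, -0.11 and 0.24, and fed LWT livers -0.22, -0.07, 0.34, 0.13 and -0.21. The fed groups overlapped, every fasted LKO liver was above all fed livers, and every fasted LWT liver was below all fed LWT livers. In fasted livers Cxcl10 was 5.69-fold higher in LKO (log2 2.51, SE 0.20, adjusted p = 4.86e-09). It rose 3.81-fold with fasting in LKO (log2 1.93, SE 0.19, adjusted p = 5.09e-08) and fell 1.60-fold in LWT (log2 -0.68, SE 0.20, adjusted p = 0.0106). The 2 fasting changes differed by 2.61 (SE 0.28, adjusted p = 2.74e-06), and within the slides by 2.40 to 3.00. Replicate 3, so high for Cxcl1, was within the range of the other fed LKO livers for Cxcl10.

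Ccl2 was the dimmest of the chemokine probes among the members, at -1.96, -1.11 and -0.35 in fasted LKO livers, against -2.44, -3.21, -2.84, -3.22 and -3.07 in fasted LWT livers. Its fed levels were -2.47, -2.11 and -1.53 in LKO and -2.23, -1.88, -2.22, -2.43 and -1.46 in LWT. As for Cxcl10, the fasted groups did not overlap while the fed groups did. Ccl2 was 3.50-fold higher in fasted LKO livers (log2 1.81, SE 0.25, adjusted p = 1.17e-05), rose by 0.94 with fasting in LKO (SE 0.24, adjusted p = 0.00302) and fell by 0.91 in LWT (SE 0.27, adjusted p = 0.00851). The 2 arrays of 1 fasted LWT animal differed by 1.42 for Ccl2, the largest gap between arrays of an animal among the 36 genes, whose median gap was 0.08 in that animal and 0.05 in the fed LWT animal with 2 arrays. With slide as a block, the fall in LWT did not pass (adjusted p = 0.0529).

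Of 20 other chemokine genes on a list made for this work, 14 were bright enough to test. In fasted livers 3 were higher and 3 lower in LKO, beside 37.9% of all genes called. Ccl4 was higher by 1.91 (SE 0.37, adjusted p = 0.000369) and Cxcl9, like Cxcl10 an interferon-induced chemokine, by 1.01 (SE 0.21, adjusted p = 0.000607), whereas Cxcl13, which draws B cells, was lower by 0.96 on the log2 scale (log2 -0.96, SE 0.22, adjusted p = 0.00151). Cxcl9 fell with fasting in LWT (log2 -1.55, SE 0.21, adjusted p = 7.01e-06), and its fasting changes differed between the genotypes by 1.08 (SE 0.29, adjusted p = 0.0131). Cxcl2, Cxcl5, Ccl3 and Ccl22 were well above background in no animal, and Ccl7 and Ccl12 in 4 and 2 animals, so these 6 were not tested.

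**Figure D2:**
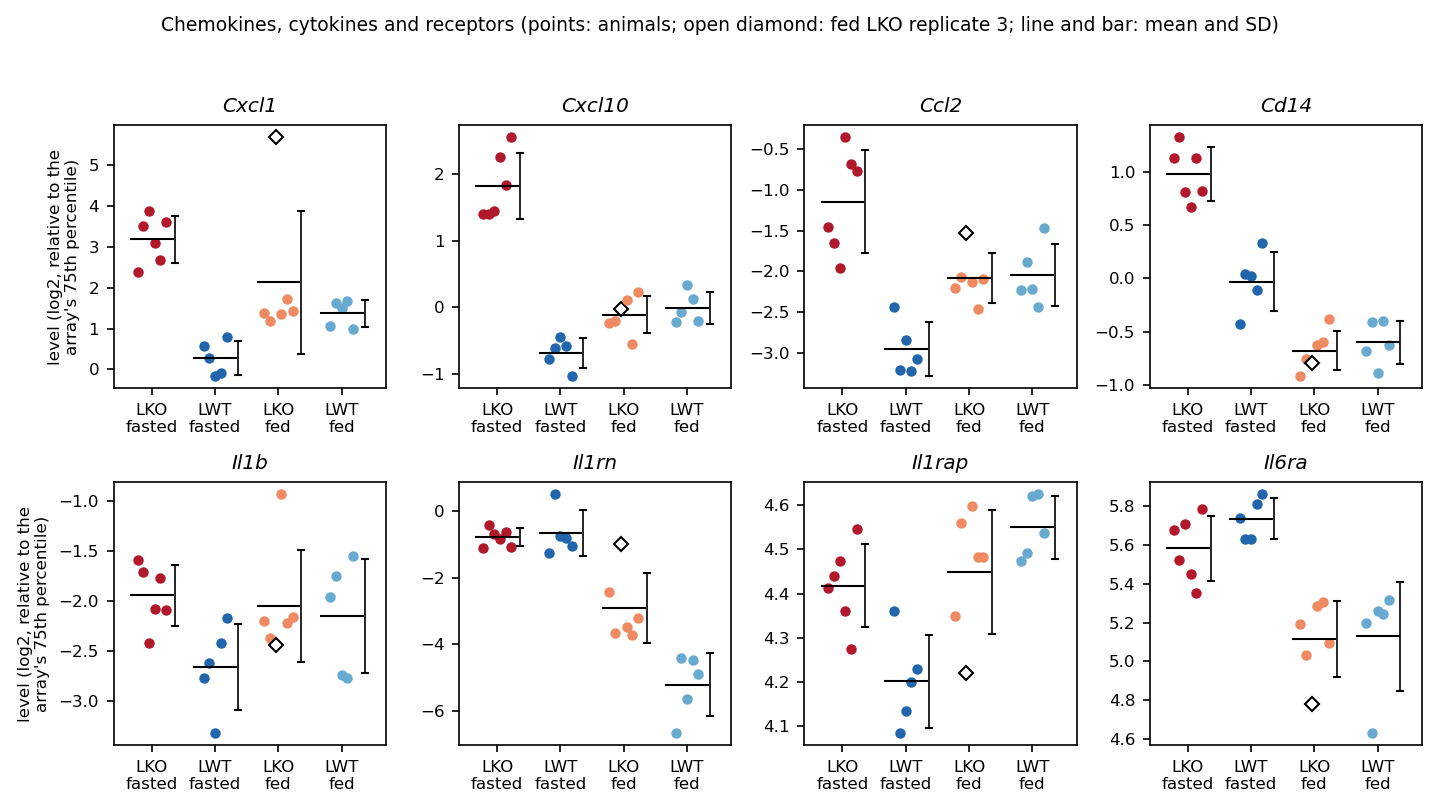
Level of each animal (log2, relative to the array's 75th percentile; lines and bars, mean and SD) for 8 genes of chemokines, cytokines and receptors in fasted LKO, fasted LWT, fed LKO and fed LWT livers. The fasted LKO livers lie above all fasted LWT livers for Cxcl1, Cxcl10, Ccl2 and Cd14, and the open diamond, fed LKO replicate 3, lies at 5.69 for Cxcl1.

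Cd14 encodes the co-receptor that hands lipopolysaccharide to the toll-like receptor TLR4, and Lbp the plasma protein that loads it with lipopolysaccharide. Cd14 had levels of 0.67, 0.98 and 1.33 (lowest, median, highest) in fasted LKO livers, against -0.43, 0.04, 0.02, -0.11 and 0.33 in fasted LWT livers. Fed LKO livers stood at -0.92, -0.69 and -0.38, and fed LWT livers at -0.68, -0.41, -0.89, -0.40 and -0.62. No fasted LKO liver overlapped any other group. Cd14 was 2.02-fold higher in fasted LKO than in fasted LWT livers (log2 1.01, SE 0.14, adjusted p = 6.45e-06), and it rose 3.17-fold with fasting in LKO (log2 1.66, SE 0.13, adjusted p = 3.15e-09) and 1.49-fold in LWT (log2 0.57, SE 0.14, adjusted p = 0.00259). The rise was larger in LKO by 1.09 (SE 0.19, adjusted p = 0.00053). A second Cd14 probe gave 1.17 for the genotype difference in fasted livers and 1.06 for the difference of the rises.

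Lbp rose with fasting in both genotypes. Its levels were 4.28, 4.60 and 4.91 in fasted LKO livers, against 3.86, 3.91, 4.06, 4.23 and 4.16 in fasted LWT livers. In the fed state they were 2.47, 2.85 and 3.08 in 5 fed LKO livers and 4.64 in fed LKO replicate 3, against 2.90, 2.85, 3.10, 3.35 and 2.43 in LWT. Every fasted liver was thus above every fed liver other than replicate 3. The rise was 2.89-fold in LKO (log2 1.53, SE 0.26, adjusted p = 5.04e-05) and 2.17-fold in LWT (log2 1.12, SE 0.28, adjusted p = 0.00305). The fasted groups did not overlap, yet the genotype difference of 0.58 (SE 0.27) had an adjusted p of 0.1 with all animals and 0.00373 without fed LKO replicate 3. Without that animal the rises differed by 0.73 (SE 0.21, adjusted p = 0.0183).

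Il1b encodes interleukin-1 beta, Il1rn the antagonist that blocks its receptor, Il1r1 the signalling receptor and Il1rap the accessory chain of that receptor. Il1rn rose with fasting in both genotypes, by an amount that depended on the background correction and on the probe. It stood at -1.10, -0.76 and -0.43 in fasted LKO livers and at -1.26, 0.51, -0.75, -0.80 and -1.04 in fasted LWT livers, which overlapped. Fed LKO livers had -3.72, -3.47 and -2.43 in 5 fed LKO livers and -0.99 in fed LKO replicate 3, and fed LWT livers -6.65, -4.41, -5.63, -4.46 and -4.87. The fed groups did not overlap, and every fed LWT liver was below every other animal of the study for this probe. Its probe was well above background on all 6 arrays of each other group and on 1 of the 6 arrays of fed LWT livers, so the fed LWT level was close to background. Il1rn rose with fasting by 4.54 in LWT (SE 0.48, adjusted p = 2.47e-07) and by 2.13 in LKO (SE 0.44, adjusted p = 0.000385), and in fed livers it was higher in LKO by 2.29 (SE 0.46, adjusted p = 0.00465). Normexp background correction gave 0.64 for that fed difference (adjusted p = 0.151), the authors' deposited log2 values 0.98 (adjusted p = 0.0563), and the fit to the fed animals alone 2.29 (adjusted p = 0.0638), so the fed call was lost in each. The difference of the fasting changes, -2.41 (SE 0.65, adjusted p = 0.013), was lost with normexp (-0.75, adjusted p = 0.123) and in the deposited table (-1.08, adjusted p = 0.0661). The rises in both genotypes had adjusted p-values below 0.05 under all 30 alternatives, over which they ran from 1.92 to 4.73 in LWT and from 1.17 to 2.51 in LKO. A second kept Il1rn probe, dimmer in fasted livers, read a rise of 2.667 in LWT and 1.575 in LKO. With it the fed genotype difference was 1.046 and the difference of the fasting changes -1.092.

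With the brightest probes, the other genes of interleukin-1 and interleukin-6 reception changed less. Il1b averaged -1.94 ± 0.31 (SD, n = 6) in fasted LKO and -2.66 ± 0.43 (n = 5) in fasted LWT livers. These groups overlapped, and the difference of 0.72 (SE 0.27) had an adjusted p of 0.045 that 15 of 30 alternatives lost; averaged over the kept probes of the gene it was 0.26 (adjusted p = 0.56). Il1rap was higher in fasted LKO livers by 0.22 (SE 0.07, adjusted p = 0.0159) and fell by 0.35 with fasting in LWT (SE 0.07, adjusted p = 0.000454); its change in LKO was -0.03 (95% interval -0.17 to 0.10). The Il1rap fasting changes differed by 0.32 (SE 0.10, adjusted p = 0.0257). Its 4 probes gave 0.05 to 0.64 for the fasted genotype difference. For the fasting change in LWT they gave -1.48 to -0.08, and for the difference of the fasting changes 0.24 to 1.22. Il6ra, the ligand-binding chain of the interleukin-6 receptor, rose with fasting by 0.47 in LKO (SE 0.11, adjusted p = 0.00143) and by 0.61 in LWT (SE 0.12, adjusted p = 0.000386), with every fasted liver above every fed one. Il1r1 was called in no comparison, with changes from -0.28 to 0.33.

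The serum amyloid A genes lie next to each other on chromosome 7. Saa1 and Saa2 encode the main acute phase apolipoproteins of the mouse liver, Saa3 a form that macrophages also make, and Saa4 a form made at rest. The promoters of Saa1 and Saa2 are printed because their levels followed each other across the animals and the genes are close copies: over 299 aligned positions 287 bases were identical (96%). Capitals mark the bases that differ, and 1 base in each has no partner at the ends or in a gap. The Saa1 window is chr7:46742931-46743230 on the - strand and the Saa2 window chr7:46751583-46751882 on the + strand (RefSeq, GRCm38.p6), each from 250 bases before to 50 after the transcript start.
Saa1: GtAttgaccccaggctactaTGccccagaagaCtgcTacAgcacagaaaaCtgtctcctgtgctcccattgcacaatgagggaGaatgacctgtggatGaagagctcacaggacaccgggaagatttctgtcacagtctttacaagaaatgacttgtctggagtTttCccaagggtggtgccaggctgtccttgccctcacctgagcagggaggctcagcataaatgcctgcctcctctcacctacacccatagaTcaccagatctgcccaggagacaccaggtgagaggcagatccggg
Saa2: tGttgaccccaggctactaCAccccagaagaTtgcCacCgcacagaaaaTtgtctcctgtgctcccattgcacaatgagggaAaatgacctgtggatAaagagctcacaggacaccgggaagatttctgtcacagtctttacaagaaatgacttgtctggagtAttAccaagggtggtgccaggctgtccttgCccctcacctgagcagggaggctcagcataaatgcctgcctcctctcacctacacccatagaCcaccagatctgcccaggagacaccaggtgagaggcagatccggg
The identity given is that of the promoter windows only. Probes of close copies may bind both transcripts, which was not tested. The values of Saa1 and Saa2 are thus uncertain as values of either gene alone.

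Saa1 levels were 5.42, 6.06 and 6.67 in fasted LKO livers, against 4.82, 4.53, 4.07, 4.37 and 4.40 in fasted LWT livers. In the fed state they were 5.69, 6.24 and 7.98 in 5 fed LKO livers and 10.43 in fed LKO replicate 3, against 5.71, 8.38, 6.37, 9.49 and 6.68 in LWT. The fasted groups did not overlap, the fed groups did, and fed livers of both genotypes spread widely, with replicate 3 of LKO and replicates 4 and 2 of LWT highest. Saa1 fell 7.41-fold with fasting in LWT (log2 -2.89, SE 0.73, adjusted p = 0.00309), and every fasted LWT liver was below every fed LWT liver. In LKO its change was -1.20 (95% interval -2.60 to 0.20, adjusted p = 0.148). The fasted genotype difference was 1.57 (SE 0.70, adjusted p = 0.086) with all animals and 1.57 (SE 0.53, adjusted p = 0.0231) without fed LKO replicate 3. Within the slides it was 1.45 to 1.60.

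Saa2 gave the same picture, at 5.66, 6.43 and 6.94 in fasted LKO, 4.82, 4.63, 4.10, 4.53 and 4.52 in fasted LWT, 6.04, 6.50 and 8.33 in 5 fed LKO livers and 10.78 in fed LKO replicate 3, and 5.95, 8.66, 6.62, 9.79 and 7.00 in fed LWT livers. It fell 8.47-fold with fasting in LWT (log2 -3.08, SE 0.74, adjusted p = 0.00203) and was higher in fasted LKO than in fasted LWT livers by 1.79 (SE 0.71), with an adjusted p of 0.0536 with all animals and of 0.0116 without replicate 3. That difference also passed with quantile normalization (1.90, adjusted p = 0.041), with normexp (1.78, adjusted p = 0.0454) and in the deposited table (1.88, adjusted p = 0.0381). Without replicate 3, the fasting changes of Saa1 and Saa2 differed between the genotypes by 2.33 (SE 0.77, adjusted p = 0.0332) and 2.52 (SE 0.78, adjusted p = 0.0237).

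Saa3 was higher in fasted LKO livers, at 2.30, 2.71 and 3.30, against 1.27, 1.59, 2.22, 2.19 and 1.90 in fasted LWT livers. Fed levels were 2.28, 2.69 and 3.16 in 5 fed LKO livers and 4.51 in fed LKO replicate 3, against 2.21, 3.08, 2.51, 3.34 and 2.90 in LWT. The fasted groups did not overlap (log2 0.97, SE 0.31, adjusted p = 0.019), and Saa3 fell by 0.97 with fasting in LWT (SE 0.33, adjusted p = 0.0199). Without fasted LWT replicate 1, the lowest of its group, the genotype difference was 0.83 (adjusted p = 0.0597) and the fall 0.83 on the log2 scale (log2 -0.83, adjusted p = 0.0585). The fall was also lost without fed LWT replicate 4 (log2 -0.84, adjusted p = 0.0559).

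Saa4 stood at 4.36, 5.06 and 5.44 in fasted LKO and 4.76, 4.16, 4.67, 5.04 and 4.92 in fasted LWT livers, and at 5.16, 5.84 and 6.97 in fed LKO and 6.11, 6.17, 5.78, 6.74 and 5.24 in fed LWT livers. It fell in both genotypes, by 0.94 in LKO (SE 0.27, adjusted p = 0.00647) and by 1.30 in LWT (SE 0.29, adjusted p = 0.00122). The genotypes overlapped in both states.

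**Figure D3:**
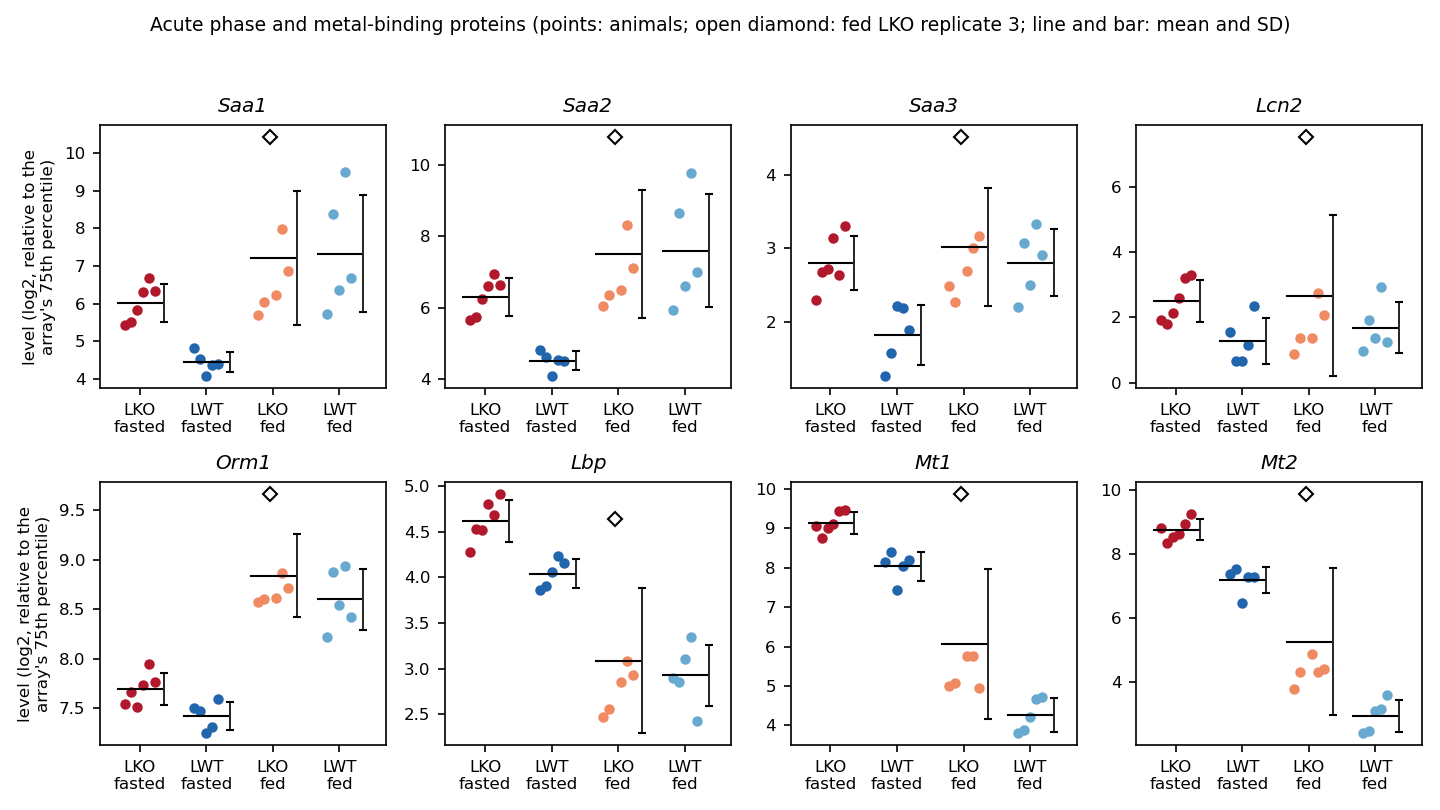
Level of each animal (log2, relative to the array's 75th percentile; lines and bars, mean and SD) for 8 genes of secreted and metal-binding proteins in fasted LKO, fasted LWT, fed LKO and fed LWT livers. Fed LKO replicate 3 (open diamond) is the highest fed liver in all 8 panels, and the fasted LWT livers lie lowest for Saa1 and Saa2.

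Among the other secreted acute phase proteins, Orm1 and Orm2 fell with fasting in both genotypes. Orm1 and Orm2 encode orosomucoid, a plasma carrier of drugs and lipids, and are near-identical copies. Orm1 stood at 7.51, 7.70 and 7.95 in fasted LKO and 7.50, 7.47, 7.25, 7.31 and 7.59 in fasted LWT livers, and at 8.57, 8.61 and 8.86 in 5 fed LKO livers and 9.66 in fed LKO replicate 3, against 8.22, 8.87, 8.54, 8.94 and 8.42 in fed LWT livers. Every fasted liver was below every fed liver, with a fall of 1.14 in LKO (SE 0.16, adjusted p = 4.6e-06) and of 1.17 in LWT (SE 0.17, adjusted p = 1.42e-05). Orm2 stood at 6.13, 6.42 and 6.62 in fasted LKO and 6.20, 6.23, 5.94, 6.07 and 6.37 in fasted LWT livers, and at 7.30, 7.32 and 7.57 in 5 fed LKO livers and 8.67 in fed LKO replicate 3, against 7.03, 7.73, 7.29, 7.77 and 7.10 in fed LWT livers. It fell by 1.21 in LKO (SE 0.19) and by 1.22 in LWT (SE 0.21), again with no overlap. The difference between the falls was 0.03 for Orm1 (95% interval -0.46 to 0.52) and 0.01 for Orm2 (95% interval -0.58 to 0.60).

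Apcs encodes serum amyloid P, the main acute phase pentraxin of the mouse. It stood at 2.27, 2.45 and 2.74 in fasted LKO, 2.71, 2.52, 2.33, 2.83 and 2.79 in fasted LWT, 2.90, 3.07 and 3.37 in 5 fed LKO livers and 6.10 in fed LKO replicate 3, and 2.89, 3.55, 2.99, 2.95 and 3.13 in fed LWT livers. Fed LKO replicate 3 was 8.15-fold above the mean of the other 5 fed LKO livers. The change with fasting in LKO was -1.10 with it (SE 0.37, adjusted p = 0.0193) and -0.59 without it (SE 0.12, adjusted p = 0.000421), and without it the change in LWT passed as well (log2 -0.46, SE 0.13, adjusted p = 0.00514). Crp, the other pentraxin, was called in no comparison with its main probe. The mean over the kept probes with its symbol gave a rise with fasting in both genotypes, since a second probe read 1.71 in LKO and 1.87 in LWT. That probe is of another transcript and starts at base 174762815 of chromosome 1 (mm9), against 174629452 for the main probe. Whether it reads Crp was not tested.

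Lcn2 encodes lipocalin-2, which takes iron-carrying siderophores from bacteria. It had 1.81, 2.36 and 3.29 in fasted LKO, 1.54, 0.68, 0.68, 1.16 and 2.34 in fasted LWT, 0.89, 1.39 and 2.76 in 5 fed LKO livers and 7.52 in fed LKO replicate 3, and 0.98, 1.92, 1.36, 2.94 and 1.26 in fed LWT livers. Replicate 3 was 56.4-fold above the mean of the other fed LKO animals. No comparison passed with all animals. Without that animal, Lcn2 was higher in fasted LKO than in fasted LWT livers by 1.22 (SE 0.41, adjusted p = 0.0219), although these groups overlapped.

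Among the proteins of clotting and of haem binding, changes were small. Fga, a fibrinogen chain gene, had 5.58, 5.80 and 6.21 in fasted LKO, 6.01, 5.90, 5.90, 6.06 and 6.17 in fasted LWT, 5.81, 6.07 and 6.23 in 5 fed LKO livers and 8.02 in fed LKO replicate 3, and 6.22, 6.25, 6.31, 6.43 and 5.97 in fed LWT livers, and was called in no comparison. Fgb and Fgg encode the other fibrinogen chains. Fgg fell by 0.38 with fasting in LKO (SE 0.10, adjusted p = 0.0029), and without replicate 3 it fell by 0.27 in LKO and 0.26 in LWT and Fgb by 0.20 in LWT. Hpx, which encodes the haem-binding protein hemopexin, averaged 9.88 ± 0.07 (SD, n = 6) in fasted LKO and 9.29 ± 0.08 (n = 5) in fasted LWT livers, with no overlap (log2 0.59, SE 0.14, adjusted p = 0.00245). Hp, which encodes haptoglobin, and C3, the central complement component, were called in none, with changes of at most 0.23 and 0.10.

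Itih3 and Itih4 encode heavy chains of the inter-alpha-trypsin inhibitor family. Itih3 was the only member lower in fasted LKO than in fasted LWT livers without an overlap of these groups. It had 7.54, 7.59 and 7.73 in fasted LKO, 8.20, 8.12, 7.99, 8.11 and 8.27 in fasted LWT, 7.47, 7.55 and 7.86 in 5 fed LKO livers and 9.02 in fed LKO replicate 3, and 7.75, 8.15, 7.84, 8.35 and 7.45 in fed LWT livers. That difference was -0.52 (SE 0.21, adjusted p = 0.0511) with all animals and -0.52 (SE 0.12, adjusted p = 0.00117) without fed LKO replicate 3. Itih4 fell with fasting by 0.51 in LKO (SE 0.13, adjusted p = 0.00208) and by 0.55 in LWT (SE 0.14, adjusted p = 0.00278). Serpina3n and Serpina3m encode protease inhibitors of a family of close copies. Serpina3n had 4.33, 4.73 and 5.00 in fasted LKO, 5.28, 5.10, 4.47, 5.08 and 5.22 in fasted LWT, 4.04, 4.12 and 4.53 in 5 fed LKO livers and 6.19 in fed LKO replicate 3, and 4.26, 4.41, 4.40, 4.44 and 3.96 in fed LWT livers. Serpina3m was called in no comparison. The change of Serpina3n with fasting in LWT was 0.74 (SE 0.30, adjusted p = 0.0505), and without replicate 3 it passed in LWT (adjusted p = 0.000521) and in LKO (0.54, SE 0.15, adjusted p = 0.00433).

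**Figure D4:**
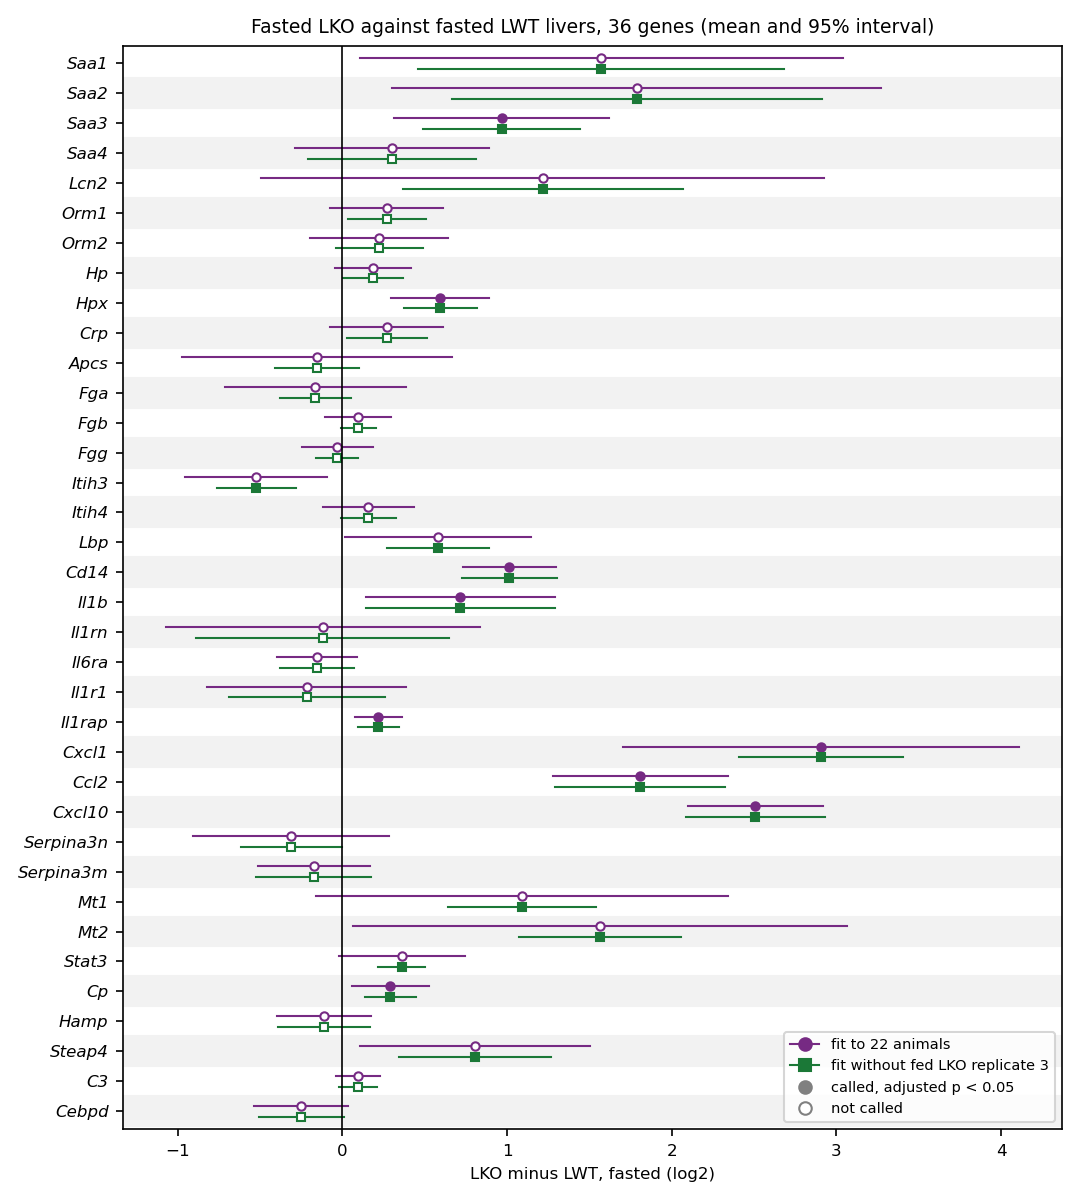
Difference between fasted LKO and fasted LWT livers (log2, with 95% interval) of the 36 genes in the fit to all 22 animals (circles) and in the fit without fed LKO replicate 3 (squares); filled symbols were called. The differences are the same in both fits, the intervals narrow without that animal for genes such as Cxcl1, Saa1 and Mt2, with 18 calls without it and 9 with all animals.

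The metallothionein genes Mt1 and Mt2 rose more with fasting than any other member in LKO livers. They encode small proteins that bind zinc and copper, and they are switched on by metals through the transcription factor MTF-1 and by glucocorticoids and cytokines. Their promoters are shown because MTF-1 acts through metal response elements, searched here as TGCACNC and TGCGCNC on both strands and set in capitals. The Mt1 window is chr8:94178839-94179138 and the Mt2 window chr8:94172368-94172667, both on the + strand and from 250 bases before to 50 after the transcript start (RefSeq, GRCm38.p6).
Mt1: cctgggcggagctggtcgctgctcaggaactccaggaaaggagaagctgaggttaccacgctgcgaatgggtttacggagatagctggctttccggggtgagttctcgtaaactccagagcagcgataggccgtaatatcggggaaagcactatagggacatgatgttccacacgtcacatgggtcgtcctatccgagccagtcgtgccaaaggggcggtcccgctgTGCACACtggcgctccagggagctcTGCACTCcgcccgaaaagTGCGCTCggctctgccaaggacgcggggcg
Mt2: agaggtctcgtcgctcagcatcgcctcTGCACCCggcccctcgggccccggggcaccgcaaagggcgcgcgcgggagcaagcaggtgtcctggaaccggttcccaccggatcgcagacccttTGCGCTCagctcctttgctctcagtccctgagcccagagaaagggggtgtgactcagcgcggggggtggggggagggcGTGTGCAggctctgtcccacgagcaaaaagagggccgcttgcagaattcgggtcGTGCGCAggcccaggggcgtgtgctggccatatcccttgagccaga
The Mt1 window held 3 matches and the Mt2 window 4. Of 32851 promoters 25.7% held at least 1, and of the 29 members with a promoter the others were Fga, Fgg and Il1r1. A STAT site, searched as TTCNNNGAA, was in 8.30% of promoters and in 6 members, Apcs, Fga, Fgb, Itih4, Hamp and Steap4.

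Mt1 stood at 8.74, 9.07 and 9.46 in fasted LKO livers, against 8.14, 8.41, 7.43, 8.03 and 8.19 in fasted LWT livers. Fed levels were 4.94, 5.07 and 5.76 in 5 fed LKO livers and 9.86 in fed LKO replicate 3, against 3.81, 3.88, 4.22, 4.67 and 4.72 in fed LWT livers. Groups did not overlap between the genotypes in either state, and replicate 3 of fed LKO was above every fasted liver. Mt1 rose 8.36-fold with fasting in LKO (log2 3.06, SE 0.57, adjusted p = 0.000152) and 13.7-fold in LWT (log2 3.78, SE 0.63, adjusted p = 5.57e-05). The genotype difference was 1.80 in fed livers (SE 0.60, adjusted p = 0.11) and 1.09 in fasted livers (SE 0.60, adjusted p = 0.165) with all animals. Without replicate 3 it was 1.04 (SE 0.22, adjusted p = 0.00791) and 1.09 (SE 0.21, adjusted p = 0.000421).

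Mt2 stood at 8.33, 8.72 and 9.25 in fasted LKO livers, against 7.38, 7.51, 6.47, 7.27 and 7.28 in fasted LWT livers. Fed levels were 3.79, 4.32 and 4.89 in 5 fed LKO livers and 9.86 in fed LKO replicate 3, against 2.42, 2.48, 3.12, 3.17 and 3.60 in fed LWT livers. As for Mt1, the genotypes did not overlap in either state. Mt2 rose 11.2-fold in LKO (log2 3.48, SE 0.69, adjusted p = 0.000259) and 18.7-fold in LWT (log2 4.22, SE 0.75, adjusted p = 0.000116). Its genotype difference was 2.30 in fed livers (SE 0.72, adjusted p = 0.0824) and 1.56 in fasted livers (SE 0.72, adjusted p = 0.095). Without replicate 3 these were 1.38 (SE 0.25, adjusted p = 0.00159) and 1.56 (SE 0.24, adjusted p = 2.75e-05), and the rises were 4.40 in LKO and 4.22 in LWT. The copies are close, so each probe may read both transcripts.

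Hamp, Cp and Steap4 belong to iron and copper handling. Hamp encodes hepcidin, the hormone that lowers iron export, and was called in no comparison. Cp encodes the copper ferroxidase ceruloplasmin and was higher in fasted LKO livers by 0.29 (SE 0.11, adjusted p = 0.0452), a call lost in 14 of 30 alternatives. Its probes disagreed in direction: the brightest read 0.292 for that difference and the others 0.926, 0.335, -0.149 and -0.282. Steap4 encodes a metalloreductase. It had 0.45, 0.89 and 1.16 in fasted LKO, 0.15, -0.32, -0.24, 0.15 and 0.32 in fasted LWT, 0.95, 1.50 and 1.74 in 5 fed LKO livers and 3.49 in fed LKO replicate 3, and 1.87, 1.66, 1.48, 2.41 and 0.81 in fed LWT livers. Steap4 fell with fasting by 0.93 in LKO (SE 0.32, adjusted p = 0.0196) and by 1.63 in LWT (SE 0.35, adjusted p = 0.000737), and the fasted genotypes did not overlap (0.81, SE 0.34, adjusted p = 0.0647 with all animals and 0.00613 without replicate 3). Of 17 other iron and metal genes tested, 6 were higher and 3 lower in fasted LKO livers, beside the 37.9% of all genes. Hamp2, a close copy of Hamp, was higher in LKO by 1.77 when fasted (SE 0.35, adjusted p = 0.000499) and by 1.52 when fed (SE 0.35, adjusted p = 0.0149), and fell by 2.04 and 2.29 with fasting in LKO and LWT.

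The 2 transcription factor genes among the members are Stat3 and Cebpd, which encodes C/EBP delta, a factor induced early in the response. Stat3 had 4.59, 4.73 and 4.80 in fasted LKO, 4.40, 4.25, 4.25, 4.35 and 4.50 in fasted LWT, 4.35, 4.38 and 4.49 in 5 fed LKO livers and 5.80 in fed LKO replicate 3, and 4.33, 4.25, 4.38, 4.58 and 4.17 in fed LWT livers. The fasted groups did not overlap, and the difference of 0.36 passed without replicate 3 (SE 0.07, adjusted p = 0.000287) but not with it (SE 0.18, adjusted p = 0.134). Cebpd had 4.37, 4.61 and 4.75 in fasted LKO and 4.88, 4.98, 4.74, 4.50 and 4.95 in fasted LWT livers, and 2.79, 3.30 and 3.77 in fed LKO and 3.43, 3.29, 3.56, 3.56 and 3.54 in fed LWT livers. All fasted livers were above all fed ones. Cebpd rose by 1.23 in LKO (SE 0.13, adjusted p = 1.67e-07) and by 1.33 in LWT (SE 0.14, adjusted p = 3.26e-07), and the rises differed by -0.10 (95% interval -0.50 to 0.30).

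Fed LKO replicate 3 carried a raised level of most acute phase genes. Over all 17215 genes, 519 were at least 1 log2 unit above and 454 as far below the mean of the other 5 fed LKO livers, against 94 to 264 above and 55 to 253 below for any other animal and its own group. Lcn2, Mt2, Mt1 and Cxcl1 ranked 2, 4, 6 and 9 among all genes by this departure, and Saa2 and Saa1 ranked 12 and 13. The departures of Stat3 (1.39), Fga (1.98), Serpina3n (2.01) and Itih3 (1.40) were each larger than the whole range of the other 5 animals. Not every member was high in it: Cxcl10 departed by 0.10, Serpina3m by 0.00, Cd14 by -0.14, and Il1rap, Il6ra and Il1b by -0.28, -0.40 and -0.46. Ccl2 departed by 0.66.

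**Figure D5:**
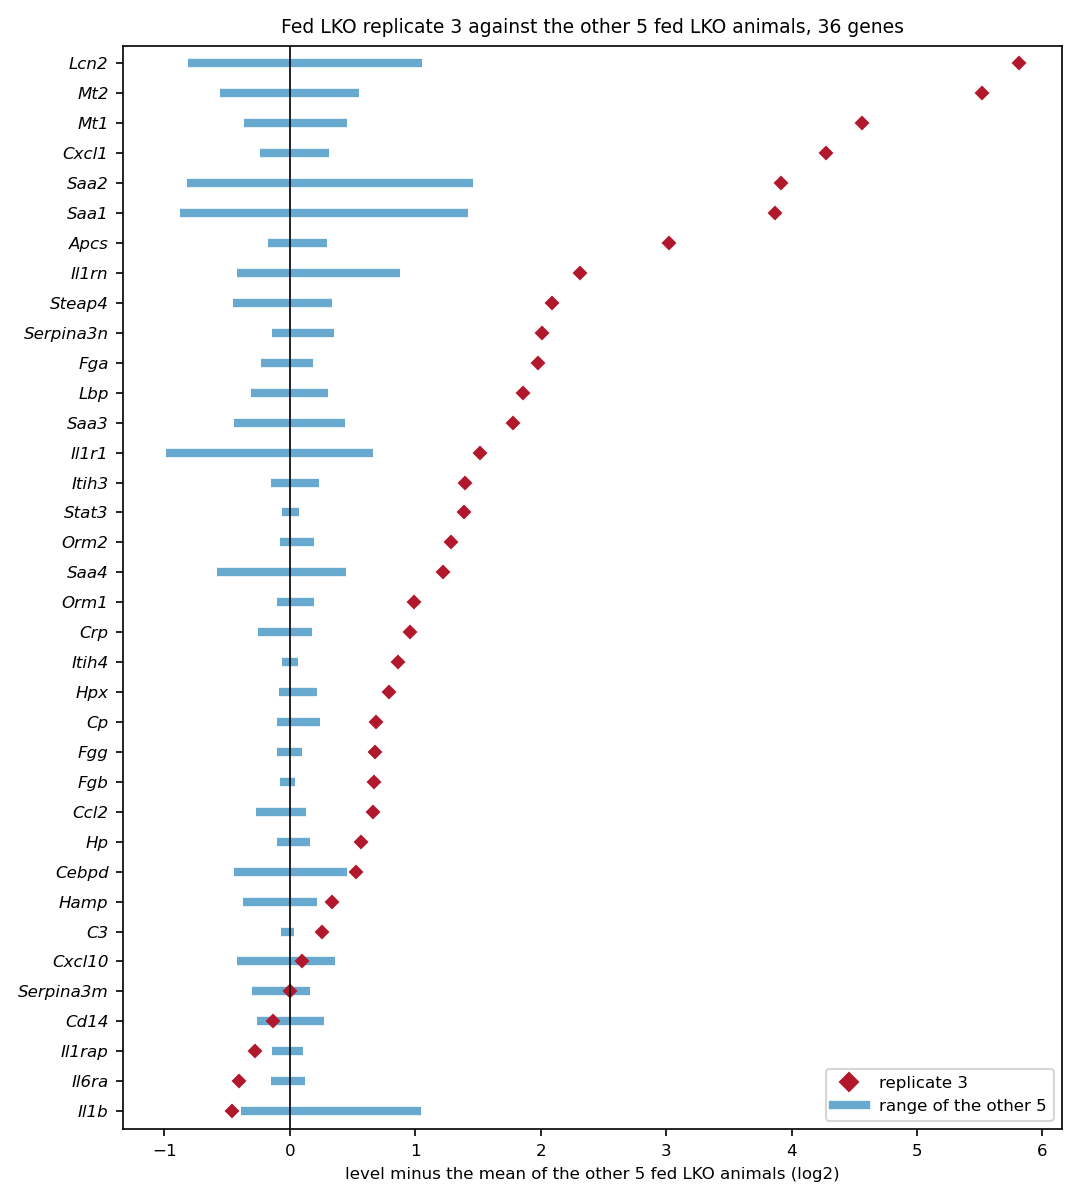
Level of each of the 36 genes in fed LKO replicate 3 (diamonds), and range of the other 5 fed LKO animals (bars), both minus the mean of those 5 (log2). Lcn2 lies 5.82 above that mean and Mt2 5.52, whereas Cxcl10, Serpina3m and Cd14 lie within the bars.

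Over all genes with a value in each fed LKO liver, 25% were above the highest and 32.6% below the lowest of the other 5 livers in replicate 3. Of the 36 members, 30 were above and 3 below. Of 25 tested genes of interleukin-6 and STAT3 signalling that are no members, 14 were above the highest of the other 5 fed LKO livers and 5 below the lowest; Socs3, the feedback inhibitor of the pathway, was at 3.91, against 0.29 to 1.37, Lrg1 at 9.36, against 6.77 to 7.74, and Fgl1, a liver-secreted protein, at 9.21, against 6.05 to 7.32. Of 25 tested genes of interleukin-1, tumour necrosis factor and toll-like receptor signalling, 13 were above and 3 below, with Tifa at 3.58, against -0.11 to 0.31. Of 11 glucocorticoid target genes none was above and 5 were below, among them Tsc22d3 at 4.82, against 5.92 to 6.64. Of 8 tested neutrophil markers, 4 were above and none below: S100a8 was at 0.22, against -3.27 to -2.25, and S100a9 at 2.32, against -1.14 to -0.27, whereas Ly6g was at 0.39, within the 0.10 to 0.57 of the other fed LKO livers. The summed neutrophil signal (6.95, against 6.78 to 6.95 over the fed LKO livers) says little here, since Csf3r alone held 91.5% of it. Markers of other cells differed by list. Below the lowest of the other 5 were 7 of 10 endothelial, 6 of 11 Kupffer cell, 4 of 8 monocyte and 4 of 5 red blood cell markers. So were 4 of 10 lymphocyte and 5 of 10 hepatocyte markers, beside 32.6% of all genes. Above the highest were 1 endothelial and 1 hepatocyte marker and none of the other 4 lists. Of 10 stellate cell markers 4 were below and 3 above, and of 5 adipocyte markers 2 were below and 1 above. Of 4 pancreas markers 1 was below and 0 above, and of 6 cholangiocyte markers 0 were below and 1 above. Ngp, Cxcr2, Ltf, Retnlg and Mmp9 were above background in at most 3 of 22 animals. The other genes of these lists named in this paragraph were chosen after their values were seen. The part of these cells in the result was not tested. In bulk liver, fewer cells of a type and less RNA per cell cannot be told apart.

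Counts of the same lists between fasted LKO and fasted LWT livers are to be read beside all genes, of which 16.5% were higher and 21.4% lower in LKO. Of 25 genes of interleukin-6 and STAT3 signalling, 5 were higher and 3 lower in LKO. Bcl3, a nuclear partner of NF-kappaB, was higher by 1.29 (SE 0.23, adjusted p = 0.000152) and Socs1, an inhibitor of cytokine signalling, by 0.81 (SE 0.18, adjusted p = 0.00143), whereas Lrg1, a secreted glycoprotein, was lower (log2 -1.66, SE 0.32, adjusted p = 0.000363). Of 25 genes of interleukin-1, tumour necrosis factor and toll-like receptor signalling, 5 were higher and 1 lower, with Tlr2 higher by 1.73 (SE 0.14, adjusted p = 1.11e-08), Tifa by 1.35 (SE 0.46, adjusted p = 0.0262) and Tnip1 by 0.40 (SE 0.07, adjusted p = 0.000108). The Tlr2 fasting changes differed between the genotypes by 1.58 (SE 0.20, adjusted p = 2.34e-05). None of these 50 genes was called between fed LKO and fed LWT livers with all animals, beside 4.02% of all genes. Without fed LKO replicate 3, 1 gene of the interleukin-6 list was higher and 1 lower when fed, beside 5.10% of all genes called. When fasted, 7 of that list were then higher and 3 lower, and 8 of the other list higher and 1 lower, beside 40.7% of all genes. Il6 was above background in 1 animal.

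Of 39 other acute phase and complement genes tested, 19 fell and 3 rose with fasting in LKO, and 19 fell and 4 rose in LWT, beside 49.7% and 44.4% of all genes called. C9, a pore-forming complement component, fell by 0.97 in LKO (SE 0.11, adjusted p = 3.52e-07) and by 1.19 in LWT (SE 0.12, adjusted p = 1.35e-07). In fasted livers 8 of the 39 were higher and 6 lower in LKO, beside 37.9% of all genes called. Cfd, the complement factor D gene and a marker of adipocytes, was lower (log2 -4.24, SE 0.52, adjusted p = 1.92e-06) and C6 higher (log2 1.13, SE 0.12, adjusted p = 2.97e-07). Of 11 negative acute phase genes, whose products fall in inflammation, none was called between fasted LKO and fasted LWT livers, beside 37.9% of all genes. When fed, 1 of the 11 was called, beside 4.02% of all genes. It was Serpina7, thyroxine-binding globulin, lower in LKO (log2 -1.97, SE 0.39, adjusted p = 0.00468). Of 11 glucocorticoid target genes 9 rose with fasting in each genotype and none fell, with a median of 0.71 in LKO and 0.90 in LWT, beside -0.04 and 0.01 for all genes.

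Some markers of other cells were called in these comparisons. Between fasted LKO and fasted LWT livers 37.9% of all genes were called, with 16.5% higher and 21.4% lower. The labelled tissue was borne out by the summed level of 10 hepatocyte markers, 12.7 to 12.9 in every animal. Between fasted LKO and fasted LWT livers, all 10 endothelial markers were lower in LKO, with summed levels of 5.53 to 5.83, against 6.08 to 6.68. Of 8 monocyte markers 3 were higher (Plac8, Ly6c1 and Ly6c2) and 2 lower, with summed levels of 5.33 to 5.95, against 5.14 to 5.75. Of 11 Kupffer cell markers 1 was higher and 1 lower, with summed levels of 6.51 to 7.00, against 6.10 to 6.81. No neutrophil marker of 8 was called, with summed levels of 6.77 to 7.07, against 6.87 to 7.02, of which Csf3r held 91.5% to 97.0% in any animal. Adipocyte markers summed to 1.71 to 2.15, against 2.50 to 2.96, with no overlap, and 2 of 5, Cfd and Fabp4, were lower. Fabp4 alone held 61.2% to 85.3% of that sum in any animal. Of 5 red blood cell markers 2, Alas2 and Slc4a1, were higher, with summed levels of 8.32 to 9.11, against 8.15 to 8.64. Hba-a1 alone held 85.1% to 92.4% of the red blood cell sum in any animal. Of 10 lymphocyte markers, Cd4 rose and 4 fell with fasting in each genotype. Of all genes, 49.7% were called with fasting in LKO and 44.4% in LWT. The summed level of the lymphocyte markers is not used, since Cd4 alone held 88.4% to 95.4% of it. The part of these cells in the changes of the 36 genes was not tested.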

How the data were processed

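Liver RNA of 22 mice was hybridised in 1 colour (Cy3) to 24 Agilent arrays on 3 slides, each slide holding 2 arrays of every group. The scanner files hold spot intensity from Agilent Feature Extraction 10.10.1.1, background-subtracted by that software per the file headers. The authors' deposited table holds log2 values of 31356 probes, quantile normalized with limma per the labels and the submitters' processing notes; it was used as an alternative only. Control and outlier spots were left out, spots of a probe averaged, and each array's 75th percentile subtracted on the log2 scale. Probes well above background in at least 5 animals were kept, and the brightest kept probe stood for a gene. Arrays of 1 animal were averaged. limma 3.58.1 (R 4.3.3) fitted 1 mean per group over 22 animals, with Benjamini-Hochberg adjustment over 17215 genes and calls at an adjusted p below 0.05. The fit was tested on simulated data.

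The members and lists were chosen with earlier results of these data known. All 36 members are accounted for. Values by animal are given for members called with a log2 change of at least 1, or with fed LKO replicate 3 at least 1 log2 unit above the rest of its group; of each list, up to 3 called genes with the largest change per comparison may be named. Replicate numbers did not pair the samples: same-numbered samples correlated by -0.181 to 0.177 in their deviations over 31 pairs, with 5 pairs over 0.1. Alternatives were normexp background correction, quantile normalization, the deposited table, no filter on dim probes, the mean of a gene's probes, a fit to the groups compared, slide or replicate number as a block, and leaving out each animal. Promoter sequences are from RefSeq (GRCm38.p6), matched by symbol for 29 of 36 members; Orm1, Hp, Lbp, Cd14, Ccl2, Serpina3m and Cebpd were not matched. Probe positions are those of the array files (mm9), and no gene annotation of that build was used.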

Additional observations from a re-analysis of the deposited data

Results flagged for a closer look

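Of 144 combinations of a member and a group, 27 had a highest or lowest animal set off from the rest by more than Dixon's 95% critical value. Fed LKO replicate 3 was that animal in 19 of them, always as the highest; it had been singled out for its high levels when these genes were chosen, so its share of the count is a description and is not set against chance. Its levels were 7.518 for Lcn2, 9.864 for Mt1, 9.863 for Mt2, 5.693 for Cxcl1 and 5.804 for Stat3. For secreted proteins they were 9.661 for Orm1, 8.668 for Orm2, 10.439 for Hpx, 2.701 for Crp, 6.1 for Apcs, 8.02 for Fga, 10.514 for Fgb and 10.19 for Fgg. They were 9.021 for Itih3, 10.048 for Itih4, 4.639 for Lbp, 6.185 for Serpina3n, 3.495 for Steap4 and 10.651 for C3. The other 8 were spread over 7 animals. Chance would set off about 5% of 144 independent combinations, so these 8 are near that share. Genes of 1 animal are not independent. Hp stood at 9.695 in fasted LKO replicate 1. Il1b stood at -0.93 in fed LKO replicate 4 and Serpina3m at 9.907 in fed LKO replicate 1. In fasted LWT livers, Il1rn stood at 0.507 in replicate 2, and Serpina3n at 4.469 and Mt2 at 6.474 in replicate 3. In fed LWT livers, Il6ra stood at 4.63 in replicate 2 and Serpina3m at 10.504 in replicate 4.

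The change with fasting differed between LKO and LWT by the interaction term for 5 members, with all 22 animals in the fit. That is 13.9% of the members, beside 18.6% of all genes. The difference, LKO change minus LWT change on the log2 scale, was 2.6078 for Cxcl10, 1.8449 for Ccl2, 1.0936 for Cd14, 0.318 for Il1rap and -2.4106 for Il1rn. Within the 3 slides it ran from 2.40 to 3.00 for Cxcl10, from 1.27 to 2.39 for Ccl2, from 0.77 to 1.35 for Cd14, from 0.01 to 0.53 for Il1rap and from -3.58 to -1.21 for Il1rn.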

How the results depend on the processing

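Of 49 called changes of members, 40 were called in the same direction under all alternatives that gave them a value (30, or 29 for the interaction, which a fit to only 2 groups does not have), 9 were lost under at least 1, and none reversed. The 9 were Il1rn, fed, and its interaction, Cp, Il1b and Saa3 between fasted LKO and fasted LWT, Apcs with fasting in LKO, Ccl2 and Saa3 with fasting in LWT, and the Il1rap interaction. The count of members called between fed LKO and fed LWT livers, 1, was 0 with normexp, 0 in the authors' deposited table and 0 in the fit to the fed animals alone. These alternatives called 666 of 17215, 675 of 16576 and 360 of 17215 genes. The count of 9 in fasted livers was 20 in the fit to the fasted animals alone, which estimates the spread without the fed livers. That fit called 6709 of all 17215 genes. Leaving out each animal gave 1 to 3 calls between fed genotypes, 6 to 18 between fasted genotypes, 16 to 19 with fasting in LKO, 17 to 24 with fasting in LWT and 5 to 13 for the interaction; the highest counts were without fed LKO replicate 3 (in LKO, also without fed LKO replicate 1), and the 6 was without fasted LWT replicate 1. Of all genes, 4.02%, 37.9%, 49.7%, 44.4% and 18.6% were called in these 5 comparisons with all animals. Without fed LKO replicate 3 the shares were 5.10%, 40.7%, 50.9%, 47.0% and 23.3%. With the replicate block the 5 counts were 1, 8, 17, 19 and 5, for fed genotypes, fasted genotypes, fasting in LKO, fasting in LWT and the interaction. The replicate block called 536, 6199, 8397, 7425 and 2842 of all 17215 genes. Crp with fasting in LWT, -0.16 with its brightest probe and not called, was 0.857 (adjusted p = 0.000251) with the mean of the kept probes that carry its symbol. These probes lie apart on chromosome 1 and read different changes. Signal over background limited Il1rn in fed LWT livers, and precision is limited by how many arrays were run.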
